A study of Mus musculus with 40 samples.

Results

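Collagen chain genes encode the strands from which all collagens are wound. They were taken by symbol, as all probes that the annotation of the array platform names Col, a number, a and a number, which gave 37 of 16593 genes, with 59 of the 23978 probes that have 1 symbol. RNA came from frozen colon and small intestine of specific-pathogen-free female mice that were 9 weeks old, and each sample was measured on 1 Illumina MouseRef-8 BeadChip, an array of bead-bound probes. The mice were BALB/c from Janvier or C57BL/6 from Charles River, so strain and supplier cannot be told apart. They received by gavage either phosphate-buffered saline (PBS) or VSL#3, a mixture of live probiotic bacteria, suspended in PBS, in 200 µl, 3 times a week for 4 weeks. This gave 4 groups of 5 mice (BALB/c PBS, BALB/c VSL#3, C57BL/6 PBS and C57BL/6 VSL#3) and, with both tissues of each mouse, 40 arrays. Signals are given on a log2 scale after normalization, each difference is a log2 difference with its standard error (SE) from a limma fit across all tested probes, and a probe was called at a Benjamini-Hochberg adjusted p under 0.05. Signals are compared between arrays for the same probe, never between probes.

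Fibril-forming collagens such as types I, III and V give the submucosa and muscle wall of the gut their tensile strength, and type IV chains form the network of every basement membrane. Type VI chains assemble into beaded filaments around cells, FACIT collagens sit on the surface of fibrils, and multiplexins such as Col15a1 and Col18a1 carry large sugar chains at basement membranes. Fibroblasts and smooth muscle cells are known as main makers of fibril-forming collagens in the gut wall. Type I collagen is normally a mixed molecule of Col1a1 and Col1a2 chains, and type IV collagen of most tissues one of Col4a1 and Col4a2 chains.

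RefSeq promoter windows of 300 bases (build GRCm38.p6, 250 bases before to 50 after the annotated start, 5′ to 3′ in the direction of the gene) were found for 30 of the 37 genes. Those of Col1a2, the member with the largest strain difference, and Col16a1, the member with the largest tissue difference, are shown with the motif CCAAT on either strand (ATTGG in the direction of the gene) in capitals. The Col1a2 window lies on chromosome 6 at chr6:4505368-4505667 on the plus strand and the Col16a1 window on chromosome 4 at chr4:130047590-130047889 on the plus strand.
Col1a2: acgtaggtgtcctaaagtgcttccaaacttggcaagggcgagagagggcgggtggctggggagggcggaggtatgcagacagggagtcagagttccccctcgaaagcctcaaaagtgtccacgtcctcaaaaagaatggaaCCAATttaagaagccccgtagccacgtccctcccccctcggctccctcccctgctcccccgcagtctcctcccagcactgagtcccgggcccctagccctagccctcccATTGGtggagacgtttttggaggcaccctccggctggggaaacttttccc
Col16a1: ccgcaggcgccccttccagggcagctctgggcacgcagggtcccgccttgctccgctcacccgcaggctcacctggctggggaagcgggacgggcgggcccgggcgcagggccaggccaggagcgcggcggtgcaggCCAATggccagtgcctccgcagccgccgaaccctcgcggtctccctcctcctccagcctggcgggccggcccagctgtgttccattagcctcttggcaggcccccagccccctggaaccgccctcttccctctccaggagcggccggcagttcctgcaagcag
The Col1a2 window held 2 matches, 1 in each direction, and the Col16a1 window 1. CCAAT was present on either strand in 37.4% of all 32851 windows and in 12 of the 33 windows of collagen genes, or 36.4%. GGGCGG, searched on both strands in the same way, was present in 35.7% of all windows and in 20 of the 33 collagen windows, and TATAAA in 13.6% of all windows and in 5 of the 33. A match is a description of the letters and was not tested as a binding site.

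The windows of Col4a1 and Col4a2 are shown because both genes were higher in colon and are annotated head to head on chromosome 8. Col4a1 lies on the minus strand (chr8:11312777-11313076) and Col4a2 on the plus strand (chr8:11312555-11312854). The annotated starts, at 11312826 and 11312805, are 21 bases apart, and the first annotated bases of both genes overlap, with no gap between the genes. The 78 bases that both windows share, read in opposite directions, are in capitals.
Col4a1: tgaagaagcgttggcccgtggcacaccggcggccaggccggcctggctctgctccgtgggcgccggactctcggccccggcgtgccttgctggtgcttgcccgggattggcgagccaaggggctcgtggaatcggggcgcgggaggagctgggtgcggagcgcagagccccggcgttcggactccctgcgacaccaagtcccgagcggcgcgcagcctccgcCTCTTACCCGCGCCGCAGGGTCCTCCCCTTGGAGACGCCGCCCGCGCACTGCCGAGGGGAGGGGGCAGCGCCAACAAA
Col4a2: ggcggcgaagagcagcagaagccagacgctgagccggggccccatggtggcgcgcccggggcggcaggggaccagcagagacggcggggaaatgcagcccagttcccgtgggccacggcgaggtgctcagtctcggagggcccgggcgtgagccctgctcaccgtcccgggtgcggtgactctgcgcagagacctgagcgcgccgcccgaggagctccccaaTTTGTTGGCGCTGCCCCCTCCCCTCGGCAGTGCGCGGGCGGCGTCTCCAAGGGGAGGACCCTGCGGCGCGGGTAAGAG

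Which chains the gut samples held was read from the detection p-value of each probe. Per array, 11898 to 13518 of all 25697 probes were detected at a p under 0.05, and arrays of one group correlated with r between 0.973 and 0.988. Of the 59 collagen probes, 20 were detected on at least 5 of the 20 arrays in colon, 20 in small intestine, 17 in both tissues and 23 in either, and these 23 belong to 20 genes. A total of 12 probes of 11 genes was detected on all 40 arrays. These were the fibril-forming chains Col1a1, Col1a2, Col3a1 and Col5a1, the type IV chains Col4a1 and Col4a2, the beaded-filament chains Col6a1 (by 2 probes) and Col6a2, the FACIT chain Col16a1 and the multiplexins Col15a1 and Col18a1.

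The other detected members were close to the background. Col14a1, a FACIT chain of connective tissue, was detected on 14 colon and 12 small intestine arrays, and Col23a1, a transmembrane collagen, on 12 and 18. Col4a5, a type IV chain, was detected on 12 and 3 arrays, Col28a1, a relative of the beaded-filament chains, on 8 and 1, Col7a1, the anchoring-fibril chain, on 7 and 5, and Col9a2, a chain of cartilage collagen IX, on 6 and 2. A probe of Col17a1, the hemidesmosome collagen, was detected on 4 and 5 arrays, 1 of Col2a1, the main cartilage chain, on 3 and 5, and 1 of Col24a1, a fibril-forming chain, on 1 and 5.

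Of the 37 genes, 17 were detected in neither tissue by this rule. They include Col5a2, a partner of Col5a1 in type V collagen, on 2 colon arrays and no small intestine array, and Col4a3 and Col4a4, chains of specialised basement membranes, on no array. Of the 36 probes below the rule, 17 were detected on no array and 19 on 1 to 4 arrays of each tissue at most. By class, 6 of 11 fibril-forming genes were detected, 3 of 6 type IV genes, 3 of 5 beaded-filament genes, 3 of 6 FACIT genes, both of the 2 multiplexins, 1 of 3 short-chain and anchoring-fibril genes and 2 of 4 transmembrane genes. Probes of a gene did not always match: Col6a1 had 2 probes on all 40 arrays and another on 1 array of each tissue, and Col3a1 had 1 on all arrays and another (ILMN_2683958) on 15 colon and 7 small intestine arrays.

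Colon was compared with small intestine within each of the 20 mice. Colon was higher for most fibril-forming and type IV chains and for Col16a1, and lower for Col18a1 and Col23a1. Col4a5, Col28a1 and Col24a1 were also called, but passed the detection filter only in the tissue where they were higher. Their calls are therefore not independent of that filter. Of the 23 tested collagen probes, 16 (14 genes) were called, 12 above and 4 below 0. That is 69.6% of the members, beside 60% of all 14009 tested probes, so that the share called is near the background. Colon was higher at 33.1% of all probes past the threshold and lower at 26.8%. The median difference of the members was 0.16, beside 0.02 over all tested probes.

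**Figure D1:**
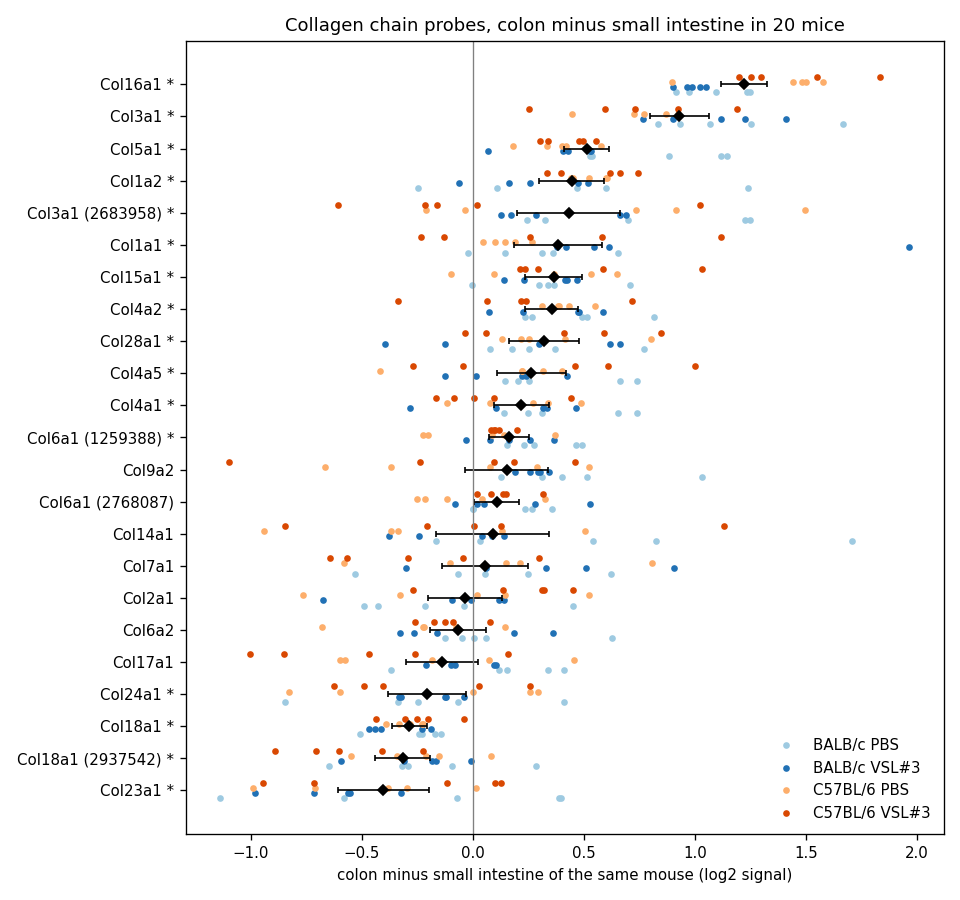
Difference of the normalized log2 signal between colon and small intestine of the same mouse (x axis) for the 23 tested collagen chain probes (y axis, with the probe number where a gene has several probes, left out for its only probe detected on all arrays). Points are the 20 mice by group, diamonds the mean over the 4 groups with its 95% interval, and asterisks mark probes called at an adjusted p under 0.05. All 20 mice lie above 0 for Col16a1, Col3a1 and Col5a1, and all lie below 0 for the brighter Col18a1 probe.

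Col16a1, a FACIT chain of fibrils and microfibrils, differed most among the members. It had colon signals of 9.10 to 9.79 (median 9.36) and small intestine signals of 7.96 to 8.56 (median 8.20), without overlap. Every mouse was higher in colon, by 0.90 to 1.83 (median 1.22), and the fitted difference was 1.22 (SE 0.05, 2.33-fold, adjusted p = 6.3e-15).

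Col3a1, the chain of type III collagen, had colon signals of 9.65 to 11.05 (median 10.43) and small intestine signals of 8.85 to 10.09 (median 9.48). The ranges of the tissues overlapped, but each of the 20 mice was higher in colon, by 0.25 to 1.67, and the difference was 0.93 (SE 0.06, 1.91-fold, adjusted p = 4.8e-11). The dimmer Col3a1 probe differed by 0.43 (SE 0.11), with 15 of 20 mice higher in colon. The code of each mouse holds the letter A or B, of unstated meaning (replicates 1 to 3 and 4 to 5). Before it stands a number, also of unstated meaning, that differs between the 4 groups of mice and cannot be told apart from strain and treatment. Whether a letter means the same in each group is not stated. The difference of the dimmer Col3a1 probe was 0.61 in mice of letter A and 0.16 in those of letter B, where it was not called (SE 0.12). Col5a1, which sets the width of fibrils with type I collagen, had colon signals of 8.81 to 9.49 (median 9.20) and small intestine signals of 8.26 to 9.01 (median 8.69). It too was higher in colon in 20 of 20 mice, by 0.51 (SE 0.05, 1.43-fold, adjusted p = 8.3e-09).

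Both type I chains were higher in colon by smaller amounts. Col1a1 had colon signals of 6.49 to 7.54 (median 7.10) and small intestine signals of 5.58 to 7.28 (median 6.75), and differed by 0.39 (SE 0.09, adjusted p = 0.0014) with 17 of 20 mice higher in colon. Col1a2 differed by 0.44 (SE 0.07, adjusted p = 1.1e-05) with 18 of 20 mice higher, from group means that depended far more on the strain, as given below.

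Among the type IV chains, Col4a2 had colon signals of 8.27 to 8.95 (median 8.54) and small intestine signals of 7.75 to 8.62 (median 8.20) and was higher in colon by 0.36 (SE 0.06, adjusted p = 1.5e-05, 19 of 20 mice). Col4a1, its partner, had colon signals of 9.40 to 10.21 (median 9.58) and small intestine signals of 9.12 to 9.70 (median 9.48) and was higher by 0.22 (SE 0.06, adjusted p = 0.0028, 16 of 20 mice). The tissues overlapped for both chains. Col4a5 was higher in colon by 0.26 (SE 0.08, adjusted p = 0.0047), with most small intestine arrays below detection.

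The multiplexins went in opposite directions. Col15a1, found at the basement membranes of vessels and muscle, had colon signals of 6.24 to 6.89 and small intestine signals of 5.37 to 6.72 and was higher in colon by 0.36 (SE 0.06, adjusted p = 2.7e-05, 18 of 20 mice), with 0.24 in mice of letter A and 0.55 in those of letter B. Col18a1, the precursor of endostatin, had colon signals of 8.74 to 9.31 (median 8.96) and small intestine signals of 9.02 to 9.59 (median 9.28) with its brighter probe. It was lower in colon in 20 of 20 mice, by 0.04 to 0.51, and the difference was -0.29 (SE 0.04, adjusted p = 1e-06). The dimmer Col18a1 probe gave -0.32 (SE 0.06) with 2 of 20 mice higher in colon.

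Col23a1 was also lower in colon (-0.40, SE 0.10, adjusted p = 0.0013, 5 of 20 mice higher in colon), as was Col24a1 (-0.21, SE 0.08, adjusted p = 0.039), the latter from a probe detected on 1 colon and 5 small intestine arrays. Col28a1 was higher in colon (0.32, SE 0.08, adjusted p = 0.00097), from a probe detected on 8 colon arrays and 1 small intestine array. Among the type VI chains, Col6a1 was higher in colon by 0.16 (SE 0.04, adjusted p = 0.0029) with 1 probe and by 0.11 (SE 0.05, adjusted p = 0.059) with the other, and Col6a2 differed by -0.07 (95% interval -0.19 to 0.06). Col14a1, Col7a1, Col9a2, Col17a1 and Col2a1 did not pass the threshold, with differences between -0.14 and 0.15.

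Genes that make, process, bind or degrade collagen were read from lists, with each gene represented by its brightest tested probe. Of 25 tested genes of collagen synthesis and processing, 18 were higher and 2 lower in colon (median 0.36), beside 33.1% and 26.8% of all tested probes. The largest rises were Creb3l1 (1.51, SE 0.08), a transcription factor that drives collagen secretion, Loxl1 (1.19, SE 0.05), a cross-linking oxidase, Pcolce2 (0.96, SE 0.08), an enhancer of procollagen cleavage, and Tmem38b (0.82, SE 0.05), an ion channel needed for collagen export. P4hb, the protein disulfide isomerase subunit of prolyl hydroxylase (-0.66, SE 0.04), and Bmp1, the C-propeptide protease (-0.44, SE 0.06), were lower in colon.

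Of 17 tested genes of collagen breakdown and its inhibitors, 10 were higher and 5 lower in colon (median 0.20), beside the same 33.1% and 26.8% of all tested probes. The lower ones were led by Mmp7 (-5.20, SE 0.11), the matrix protease of Paneth cells, Mmp10 (-3.56, SE 0.07), the proline dipeptidase Pepd (-3.29, SE 0.07) and Mmp9 (-1.22, SE 0.06). The higher ones were led by the inhibitors Timp3 (1.09, SE 0.06), Timp2 (1.02, SE 0.06) and Timp1 (1.00, SE 0.09) and the membrane protease Mmp14 (0.89, SE 0.04).

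For this and the following lists, the shares over all tested probes were again 33.1% higher and 26.8% lower in colon. Of 8 tested collagen receptors, 4 were higher and 1 was lower in colon (median 0.13). The lower one was the integrin chain Itga11 (-0.71, SE 0.06), and the higher ones were Sdc1 (0.26, SE 0.09), Itga1 (0.26, SE 0.08), Ddr1 (0.19, SE 0.05) and Cd44 (0.18, SE 0.05). Of 19 small proteoglycans and fibril regulators, 15 were higher and 3 lower (median 0.44), led by Ogn (1.19, SE 0.08), Fbln2 (0.85, SE 0.07), Prelp (0.78, SE 0.06) and Lamb2 (0.78, SE 0.09) above and Agrn (-0.65, SE 0.05), Nid2 (-0.54, SE 0.09) and Lamb1 (-0.21, SE 0.08) below. Of 16 genes of TGF-beta signalling, 7 were higher and 3 lower (median 0.03). Ccn2, a target and matrix regulator, was higher by 1.69 (SE 0.08), followed by Tgfbr2 (0.44, SE 0.05), Tgfb2 (0.42, SE 0.07) and Ltbp3 (0.40, SE 0.06). Tgfbi, another target, fell by 1.77 on the log2 scale in colon against small intestine (SE 0.04), with Skil at -0.41 (SE 0.04) and Ltbp1 at -0.29 (SE 0.09).

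Most fibroblast and smooth muscle markers were higher in colon, as were Col1a1, Col1a2, Col3a1 and Col5a1 but not the fibril-forming Col2a1 and Col24a1. Over all tested probes, 33.1% were called higher and 26.8% lower in colon. Of 14 fibroblast markers, 11 were higher and 1 lower in colon (median 0.57), and the mean level of the list was 7.41 to 8.04 in colon and 6.89 to 7.36 in small intestine. Of 12 tested smooth muscle markers, 11 were higher and none lower (median 0.97), with mean levels of 10.61 to 11.32 and 9.35 to 10.49. Of 14 pancreatic acinar markers, 13 were higher in colon, and their mean level was 5.98 to 13.64 in colon and at most 5.60 in small intestine. Without the 3 colon arrays highest in the acinar markers and the other arrays of those mice, Col16a1 differed by 1.21, Col3a1 by 0.92 and Col5a1 by 0.50. In whole tissue, fewer cells of a type and less RNA per cell cannot be told apart, and the part of these markers in the collagen differences was not tested.

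**Figure D2:**
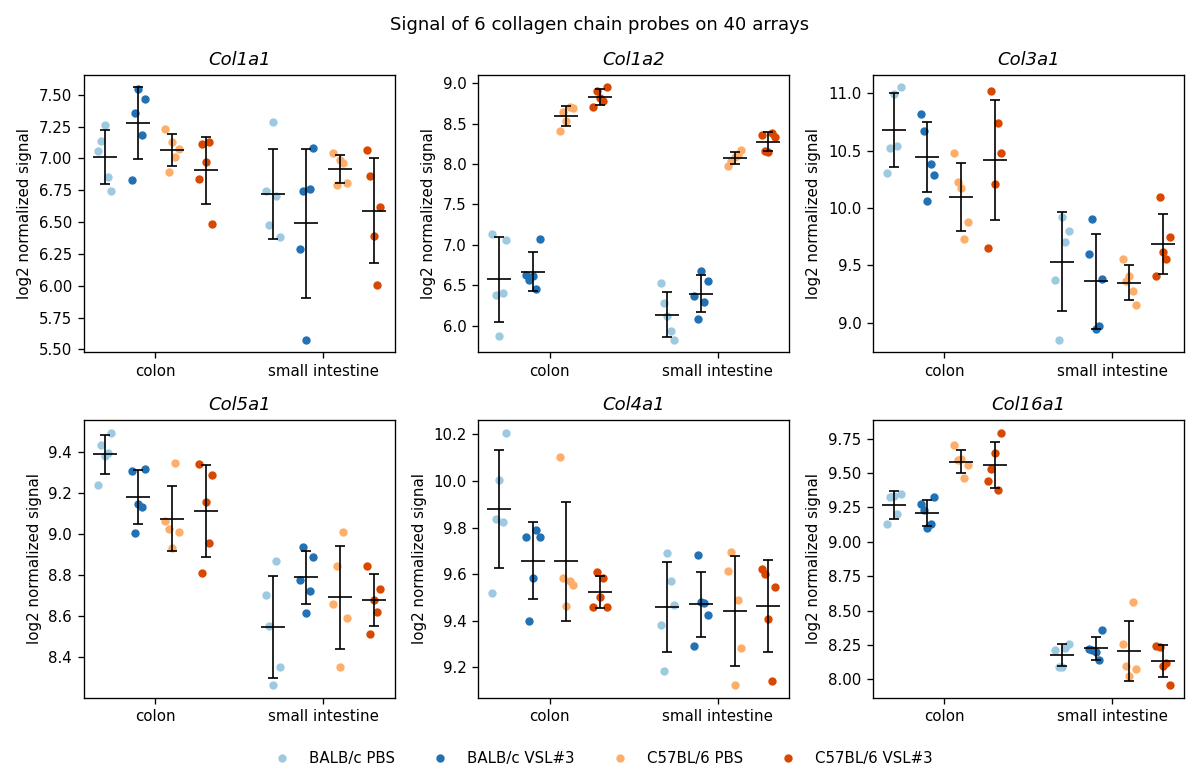
Normalized log2 signals (y axes, each with its own scale that does not start at 0) of Col1a1, Col1a2, Col3a1, Col5a1, Col4a1 and Col16a1 on the 40 arrays by tissue (x axis) and group (colour). Points are mice, and bars are the mean ± SD of 5 mice. BALB/c and C57BL/6 mice lie apart for Col1a2 in both tissues and for Col16a1 in colon. Colon lies above small intestine for Col16a1 without overlap, and mostly above it for Col3a1, where the ranges overlap.

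The strains were compared within each tissue, separately in PBS and in VSL#3 mice. A single member, Col1a2, differed by about 4-fold between the strains, and it did so in all 4 comparisons. In colon, the Col1a2 signals of BALB/c PBS mice were 7.13, 6.38, 5.87, 6.40 and 7.06 (mean 6.57 ± 0.53, SD, n = 5). Those of C57BL/6 PBS mice were 8.41, 8.65, 8.54, 8.71 and 8.69 (8.60 ± 0.12). Those of BALB/c VSL#3 mice were 6.63, 6.56, 6.61, 6.45 and 7.07 (6.66 ± 0.24), and those of C57BL/6 VSL#3 mice 8.70, 8.90, 8.81, 8.78 and 8.95 (8.83 ± 0.10). Every BALB/c mouse lay below every C57BL/6 mouse. The same held in small intestine, where the Col1a2 signals of BALB/c PBS mice were 6.53, 6.27, 6.12, 5.93 and 5.83 and those of C57BL/6 PBS mice 7.97, 8.04, 8.08, 8.11 and 8.17. VSL#3 mice of the 2 strains there averaged 6.40 ± 0.23 and 8.28 ± 0.11.

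The difference of Col1a2 in colon was -2.03 (SE 0.18, 4.08-fold lower in BALB/c, adjusted p = 4.5e-08) in PBS mice and -2.16 (SE 0.18, adjusted p = 1.6e-08) in VSL#3 mice. In small intestine it was -1.94 (SE 0.13, adjusted p = 2.3e-10) and -1.88 (SE 0.13, adjusted p = 3.3e-10). The strain difference did not pass the threshold for differing between the tissues (-0.19, 95% interval -0.47 to 0.10, adjusted p = 0.49) or between treatments (-0.14, 95% interval -0.67 to 0.39, in colon and 0.06, -0.32 to 0.43, in small intestine). Within mice of letter A the difference of Col1a2 was between -2.20 and -1.72 in the 4 comparisons, and within those of letter B between -2.26 and -1.93. Col1a2 is read by 1 probe whose sequence was not used here, so a strain difference in the bases under the probe cannot be told apart from one in the level of the transcript. No probe sequence was used, so this limit holds for the other genes compared between the strains below as well.

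Col1a1, the partner of Col1a2 in type I collagen, was not called between the strains. In colon its group means were 7.01 ± 0.21 (SD, n = 5) in BALB/c and 7.07 ± 0.13 in C57BL/6 PBS mice, and the difference was -0.06 (95% interval -0.36 to 0.24). In VSL#3 mice it was 0.37 (95% interval 0.06 to 0.67, adjusted p = 0.13), and in small intestine -0.20 in PBS mice (-0.68 to 0.28) and -0.10 in VSL#3 mice (-0.58 to 0.38). These intervals exclude a difference as large as that of Col1a2. Col3a1 differed by 0.58 in the colon of PBS mice (SE 0.22, adjusted p = 0.10) and by 0.02 in VSL#3 mice (SE 0.22), and likewise was not called.

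**Figure D3:**
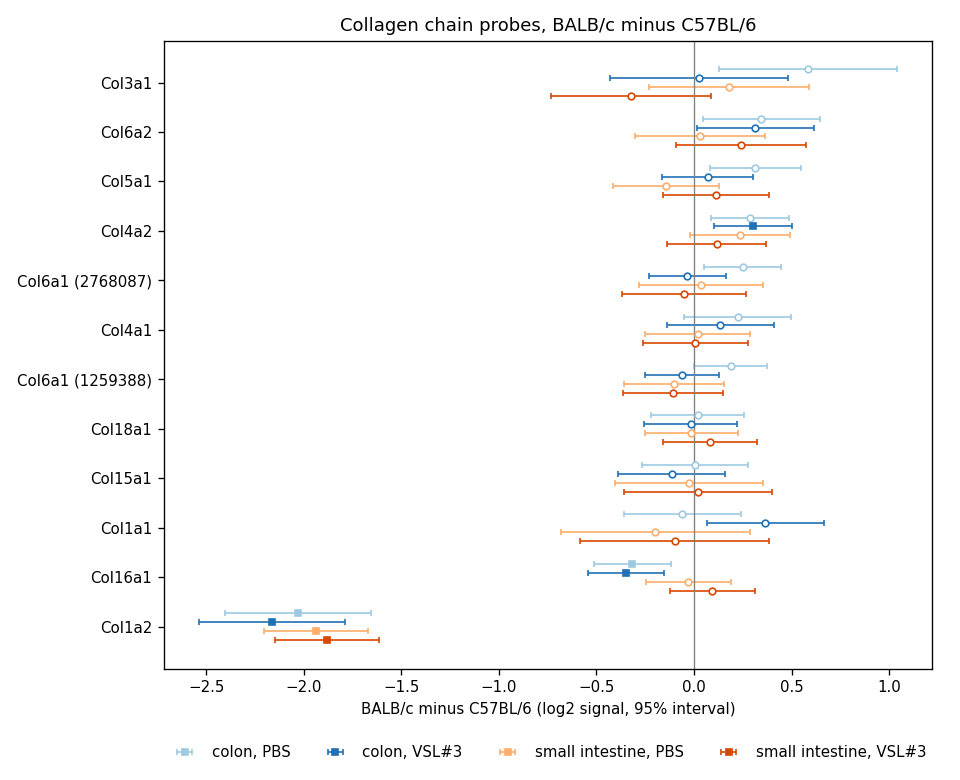
BALB/c minus C57BL/6 difference of the normalized log2 signal (x axis) for the 12 collagen probes detected on all 40 arrays (y axis, with probe numbers for Col6a1), in colon and small intestine of PBS and VSL#3 mice. Markers are the fitted differences of 5 against 5 mice, bars their 95% intervals, filled squares are called at an adjusted p under 0.05 and open circles are not. Col1a2 lies near -2 in all 4 comparisons, and the other probes lie within 0.6 of 0.

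In colon, 2 of 20 collagen probes were called between the strains in PBS mice, beside 10.3% of all 13385 tested probes, and 3 of 20 in VSL#3 mice, beside 9.81%. Beside Col1a2 these were Col16a1 and, in VSL#3 mice, Col4a2, and the same members were those whose strains did not overlap, beside 8.79% and 9.17% of all probes. Col16a1 in the colon of BALB/c PBS mice was 9.13, 9.33, 9.33, 9.20 and 9.35, and in C57BL/6 PBS mice 9.70, 9.60, 9.60, 9.46 and 9.56. In VSL#3 mice it was 9.27, 9.23, 9.10, 9.13 and 9.32 in BALB/c and 9.45, 9.53, 9.65, 9.38 and 9.79 in C57BL/6. The strains did not overlap in either treatment, and the differences were -0.32 (SE 0.09, adjusted p = 0.034) and -0.35 (SE 0.09, adjusted p = 0.020). The call of Col16a1 was lost with median scaling, with a fit of only the groups compared, and without the 3 colon arrays highest in acinar markers (-0.31, adjusted p = 0.081 in PBS mice, and -0.36, adjusted p = 0.077 in VSL#3 mice). It was also lost without any 1 of 6 PBS mice (BALB/c 1 and 4, C57BL/6 1, 2, 3 and 5), with differences of -0.32 to -0.28, and without any 1 of 4 VSL#3 mice (BALB/c 3 and 4, C57BL/6 3 and 5), with -0.33 to -0.29. Neither letter alone kept the call. In PBS mice the difference was -0.37 for letter A (adjusted p = 0.16) and -0.23 for letter B (adjusted p = 0.57). In VSL#3 mice it was -0.34 (adjusted p = 0.22) and -0.36 (adjusted p = 0.40).

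Col16a1 was also the 1 member of 23 whose tissue difference was called as differing between the strains, beside 7.4% of all tested probes. Colon exceeded small intestine by 1.09 and 0.99 in BALB/c PBS and VSL#3 mice and by 1.38 and 1.43 in the C57BL/6 groups, a difference of -0.36 (SE 0.10, adjusted p = 0.027). This call was lost with median scaling (-0.38), without the 3 colon arrays highest in acinar markers (-0.34, adjusted p = 0.12), and without any 1 of BALB/c PBS mouse 4, C57BL/6 PBS mice 3 and 5 and C57BL/6 VSL#3 mouse 5 (-0.35 to -0.31). It was also lost in mice of letter A alone (-0.37, adjusted p = 0.11) and of letter B alone (-0.36, adjusted p = 0.45). Col3a1 went the other way, with colon above small intestine by 1.15 and 1.09 in BALB/c and by 0.75 and 0.74 in C57BL/6, and did not pass (0.37, SE 0.13, adjusted p = 0.084). The next members by p were Col9a2 (0.45, SE 0.18), Col17a1 (0.37, SE 0.16) and Col5a1 (0.21, SE 0.10), with adjusted p of 0.14 to 0.22.

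Col4a2 in the colon of VSL#3 mice was 8.66, 8.54, 8.62, 8.81 and 8.73 in BALB/c and 8.42, 8.28, 8.41, 8.46 and 8.27 in C57BL/6, without overlap and higher in BALB/c by 0.30 (SE 0.10, adjusted p = 0.048). In PBS mice it differed by 0.29 (SE 0.10, adjusted p = 0.060). The call in VSL#3 mice was lost without any 1 of 9 of the 10 mice, BALB/c mouse 2 being the exception, with differences of 0.27 to 0.33. Col5a1 (0.31, SE 0.11) and Col3a1, given above, completed the members with the smallest p in the colon of PBS mice, and Col1a1 and Col9a2 (0.37, SE 0.16) those in VSL#3 mice.

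In small intestine, 2 of 20 collagen probes were called in PBS mice, beside 9.82% of all 13035 tested probes, and 1 of 20 in VSL#3 mice, beside 11.4%. The strains did not overlap for Col1a2 and, in PBS mice, Col4a2, beside 8.4% of all probes in PBS and 10.4% in VSL#3 mice. The second member called was Col14a1, which was 5.08, 4.97, 4.52, 4.84 and 5.31 in BALB/c PBS mice, with 1 of 5 arrays detected, and 5.42, 5.82, 5.79, 5.28 and 5.48 in C57BL/6 PBS mice, with 5 of 5 detected. This probe passed the detection filter only through the groups where it was high, C57BL/6 PBS and BALB/c VSL#3. Its call is therefore not independent of that filter. The difference was -0.61 (SE 0.18, adjusted p = 0.035), and 1 BALB/c mouse reached the range of the C57BL/6 mice. The call was lost without BALB/c mouse 2, 3 or 4 or C57BL/6 mouse 2, 3 or 5 (-0.63 to -0.51), and in mice of letter B alone (-0.30, adjusted p = 0.64, beside -0.82 in mice of letter A). With the deposited normalized values the difference was -1.80 and not called, and with an offset of 50 it was -0.32 and called. In VSL#3 mice it had the opposite sign (0.46, SE 0.18, adjusted p = 0.11). The other members with the smallest p in small intestine were Col7a1 (-0.30, SE 0.15), Col4a2 (0.24, SE 0.12) and Col17a1 (-0.28, SE 0.18) in PBS mice, and Col7a1 (-0.31, SE 0.15), Col23a1 (0.35, SE 0.19) and Col3a1 (-0.32, SE 0.20) in VSL#3 mice, with adjusted p of 0.21 to 0.40.

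Of 25 tested genes of collagen synthesis and processing in colon, 3 were higher and 1 was lower in BALB/c in PBS mice, and 3 and 1 in VSL#3 mice, and of 23 in small intestine 1 and 1 in PBS mice and 3 and 1 in VSL#3 mice. Of all tested probes, 5.24% were higher and 5.1% lower in BALB/c in the colon of PBS mice, 4.73% and 5.08% in that of VSL#3 mice, and 4.57% and 5.25% and then 5.64% and 5.72% in small intestine, so that the counts of the list, of 2 to 4 genes, are near or a little above the background. Serpinh1, the collagen chaperone, was higher in BALB/c in all 4 comparisons, by 0.96 (SE 0.17) and 1.21 (SE 0.17) in colon and by 0.71 (SE 0.19) and 0.84 (SE 0.19) in small intestine. Colgalt1, which attaches galactose to collagen, was lower in all 4, by -0.84 and -0.67 (SE 0.10 each) in colon and -0.72 and -0.44 (SE 0.10 each) in small intestine. The lysyl hydroxylases Plod2 (0.81, SE 0.21) and Plod3 (0.52, SE 0.13) were higher in BALB/c in the colon of PBS mice, and in VSL#3 mice they were higher in both tissues, by 0.66 to 0.98.

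In the other lists, between 0 and 3 members were called in either direction in any of the 4 strain comparisons. Of all tested probes, 4.57% to 5.72% were called in each direction in these comparisons. In colon the lists held 16 tested genes of collagen breakdown, 8 receptors, 19 proteoglycans and fibril regulators and 16 genes of TGF-beta signalling. Whether any list exceeded the share of all probes was not tested, so the genes named below are single calls. The receptor Ddr1 was lower in BALB/c colon (-0.63 in PBS and -0.73 in VSL#3 mice, SE 0.08 each), as was Cd44 (-0.50 and -0.57, SE 0.16 each), and no receptor was called in small intestine, where the smallest p belonged to Itgb1 (-0.38, SE 0.14) and Itga2 (0.38, SE 0.15) in PBS mice and to Ddr1 (-0.43, SE 0.15) and Itgb1 (-0.31, SE 0.14) in VSL#3 mice. The gelatinase Mmp2 was higher in BALB/c colon (0.38 and 0.45, SE 0.10 each). Mmp9, another gelatinase, was lower in BALB/c small intestine (-1.28 and -1.18, SE 0.15 each) and in the colon of VSL#3 mice (-0.54, SE 0.16), Mmp13 in small intestine of PBS mice (-0.72, SE 0.13) and Mmp7 in that of VSL#3 mice (-0.98, SE 0.26). Tgfbi was lower in BALB/c small intestine (-1.07 and -0.93, SE 0.11 each) and in the colon of VSL#3 mice (-0.36, SE 0.11).

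Further called members were Fbln1 (0.48, SE 0.10) and Agrn (0.46, SE 0.15) in the colon of PBS mice, Agrn there in VSL#3 mice (0.61, SE 0.15) and Hspg2 in the small intestine of VSL#3 mice (0.44, SE 0.11). In TGF-beta signalling they were Smad4 (0.45, SE 0.12) in the colon of PBS mice, Ccn2 (-1.02, SE 0.17) and Ltbp3 (-0.43, SE 0.10) in the colon of VSL#3 mice, and Ltbp3 (-0.45, SE 0.14) and Skil (-0.31, SE 0.10) in the small intestine of PBS mice. Of the proteoglycans and regulators in the small intestine of PBS mice none was called, and Nid2 (-0.49, SE 0.16) and Bgn (-0.39, SE 0.16) had the smallest p.

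Some cell markers differed between the strains. In colon of PBS mice, 4 of 12 tested smooth muscle markers were called lower in BALB/c and none higher (median -0.35), with mean levels of the list of 10.61 to 10.81 in BALB/c and 10.98 to 11.32 in C57BL/6, and in small intestine of PBS mice likewise 4 of 12 (median -0.44). In VSL#3 mice 2 of 12 were called lower in colon and 1 of 12 in small intestine. Of 14 fibroblast markers, 1 was called higher in BALB/c in the colon of PBS mice, 2 in that of VSL#3 mice, 0 in the small intestine of PBS mice and 1 in that of VSL#3 mice, with none called lower. Of 9 B cell markers 7 were called higher in BALB/c in the colon of PBS mice (median 1.42) and 1 in that of VSL#3 mice, and of 8 in small intestine 1 in PBS mice and 0 in VSL#3 mice. The shares over all probes are those given for the collagen processing genes. The part of these markers in the differences of Col1a2, Col16a1 and Col4a2 was not tested.

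VSL#3 was compared with PBS within each strain and tissue, averaged over the strains, and between the strains. None of the 20 tested collagen probes was called in any of these 8 comparisons. By limma the share of all tested probes that was called was likewise 0% in each of the 8. At an unadjusted p under 0.05, 1 member passed in the colon of BALB/c mice, 0 in that of C57BL/6 mice, 1 in the small intestine of each strain, 0 and 1 averaged over strains in colon and small intestine, and 1 in each test between strains, beside a background of 3.68% and 6.26% of all probes in BALB/c and C57BL/6 colon, 6.22% and 4.45% in small intestine, 5.09% and 4.66% averaged over strains, and 4.63% and 5.46% between strains. Every member overlapped between VSL#3 and PBS mice in each strain and tissue. Groups did not overlap at 0.635% and 0.859% of all probes in BALB/c and C57BL/6 colon and at 0.821% and 0.683% in small intestine.

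**Figure D4:**
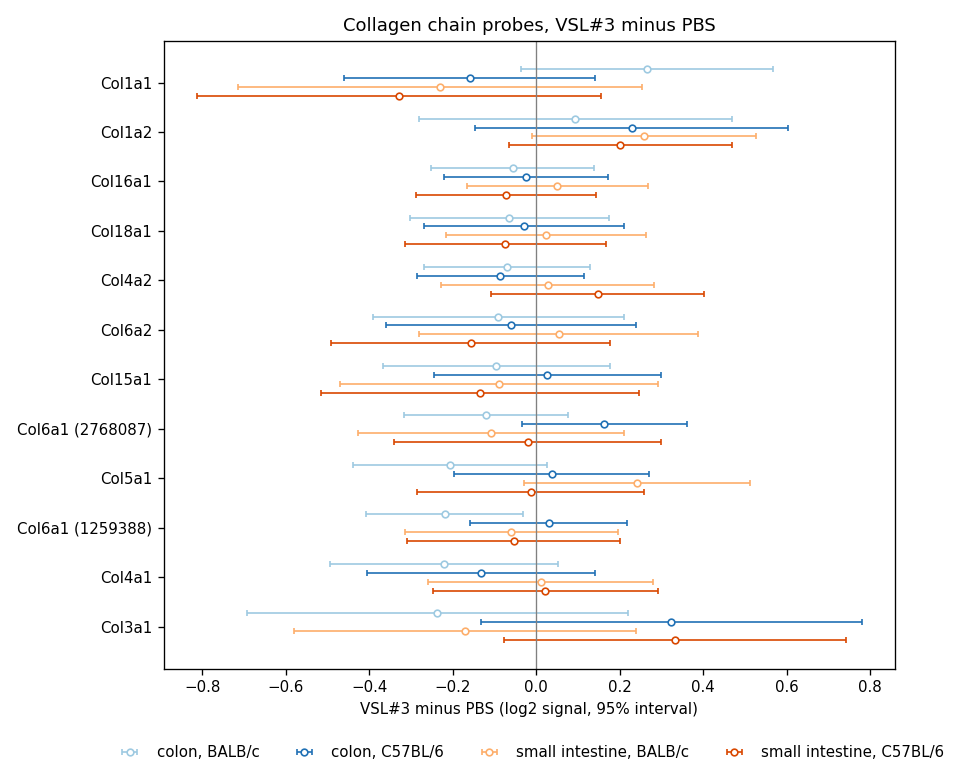
VSL#3 minus PBS difference of the normalized log2 signal (x axis) for the 12 collagen probes detected on all 40 arrays (y axis, with probe numbers for Col6a1), by tissue and strain. Open circles are the fitted differences of 5 against 5 mice, none of which was called, and bars are 95% intervals. Of the 48 intervals, the 1 that leaves out 0 is that of Col6a1 (ILMN_1259388) in BALB/c colon.

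In BALB/c colon, 5 of 20 collagen probes had a difference above 0, beside 48.6% of all probes (median -0.11 for the members), and in C57BL/6 colon 7 of 20, beside 49.2% (median -0.07). In small intestine 11 of 20 were above 0 in BALB/c, beside 51.4%, and 7 of 20 in C57BL/6, beside 48.8%. The median over all probes was between -0.01 and 0.01 in these comparisons. The smallest p in BALB/c colon belonged to Col6a1 (ILMN_1259388), which was 10.13, 10.35, 10.20, 10.23 and 10.39 in PBS mice and 10.21, 10.04, 9.97, 9.95 and 10.04 in VSL#3 mice. The groups overlapped through 1 VSL#3 mouse, and the difference was -0.22 (95% interval -0.41 to -0.03, unadjusted p = 0.024, adjusted p = 1.00). The other Col6a1 probe gave -0.12 there. Next came Col5a1 (-0.21, SE 0.11), Col1a1 (0.27, SE 0.14), Col4a1 (-0.22, SE 0.13) and the dimmer Col18a1 probe (-0.19, SE 0.13).

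In C57BL/6 colon the members with the smallest p were Col6a1 (ILMN_2768087, 0.16, SE 0.09), Col7a1 (-0.31, SE 0.20), Col3a1 (0.32, SE 0.22), Col14a1 (-0.30, SE 0.22) and Col1a2 (0.23, SE 0.18), with adjusted p of 0.84 to 0.90. Averaged over the strains in colon they were Col4a1 (-0.18, SE 0.09), the dimmer Col18a1 probe (-0.16, SE 0.09), Col6a1 (ILMN_1259388, -0.09, SE 0.06), Col14a1 (-0.22, SE 0.16) and the dimmer Col3a1 probe (-0.21, SE 0.16). Between the strains in colon they were both Col6a1 probes (-0.28, SE 0.13, and -0.25, SE 0.13), Col1a1 (0.43, SE 0.20), Col7a1 (0.57, SE 0.28) and Col3a1 (-0.56, SE 0.31), each with an adjusted p of 1.00. In small intestine averaged over the strains they were Col1a2 (0.23, 95% interval 0.04 to 0.42, adjusted p = 1.00), the dimmer Col3a1 probe (0.25, SE 0.13), Col1a1 (-0.28, SE 0.16), Col5a1 (0.11, SE 0.09) and Col4a2 (0.09, SE 0.09). None of these was called.

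The member that stood furthest apart in small intestine was Col14a1, a FACIT chain that regulates fibrils. In BALB/c mice it was 5.08, 4.97, 4.52, 4.84 and 5.31 after PBS and 5.47, 5.44, 5.62, 5.22 and 5.62 after VSL#3, with 1 and 5 of 5 arrays detected. In C57BL/6 mice it was 5.42, 5.82, 5.79, 5.28 and 5.48 after PBS and 4.47, 4.90, 5.00, 4.95 and 5.72 after VSL#3, with 5 and 1 of 5 detected. VSL#3 mice were thus above most PBS mice in BALB/c and below most in C57BL/6, all at signals near the background. The probe passed the detection filter only through the groups where it was high, so these tests are not independent of that filter. The differences were 0.53 (SE 0.18, unadjusted p = 0.0088, adjusted p = 0.76) and -0.55 (SE 0.18, unadjusted p = 0.0069, adjusted p = 1.00). The difference between them was 1.07 (SE 0.26, unadjusted p = 0.00044), and after adjustment over all probes p was 0.48. In colon the same test gave 0.17 (95% interval -0.48 to 0.83).

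The other members with the smallest p in small intestine were Col1a2 (0.26, SE 0.13), Col5a1 (0.24, SE 0.13), Col23a1 (0.28, SE 0.19) and the dimmer Col3a1 probe (0.21, SE 0.18) in BALB/c, and Col3a1 (0.33, SE 0.20, with 0.30, SE 0.18, for its dimmer probe), Col1a2 (0.20, SE 0.13) and Col1a1 (-0.33, SE 0.23) in C57BL/6. Between the strains they were Col23a1 (0.51, SE 0.27), Col3a1 (-0.50, SE 0.28), the dimmer Col18a1 probe (-0.35, SE 0.23) and Col5a1 (0.25, SE 0.18), with adjusted p of 0.93 to 0.94.

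No gene of the 5 lists of collagen processing, breakdown, receptors, fibril regulators and TGF-beta signalling was called for VSL#3 either, beside 0% of all probes. Averaged over strains in colon, the members with the smallest p were Fkbp14 (0.49, SE 0.20) and Sparc (-0.17, SE 0.09), Mmp9 (-0.23, SE 0.11) and Mmp11 (-0.22, SE 0.14), Itga1 (-0.13, SE 0.10) and Itga11 (-0.11, SE 0.09), Lamb2 (-0.17, SE 0.09) and Nid2 (0.22, SE 0.15), and Ccn2 (0.45, SE 0.12) and Tgfbr3 (0.28, SE 0.12). In small intestine they were Plod2 (-0.40, SE 0.15) and Pcolce (-0.26, SE 0.13), Mmp13 (0.15, SE 0.09) and Reck (0.16, SE 0.11), Itga2 (0.20, SE 0.11) and Itga1 (0.15, SE 0.11), Nid2 (0.20, SE 0.11) and Lamb2 (-0.26, SE 0.15), and Ccn2 (0.31, SE 0.11) and Tgfbr2 (0.15, SE 0.08). Within a strain, Ccn2 in C57BL/6 colon had the smallest p of these genes (0.90, SE 0.17, unadjusted p = 3.7e-05, adjusted p = 0.43).

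Whether chains varied together among mice of the same group was read from the 12 probes detected on all arrays, after removal of the group means, over the 20 arrays of a tissue. All 66 pairs were computed in each tissue, with permutation tests (100000 two-sided resamples within groups) and p adjusted over the 132 pairs. The coefficient r was above 0 in 36 pairs in colon and 52 in small intestine, and 3 and 2 pairs passed the adjustment. These arrays share normalization and tissue composition, so that a correlation here describes the samples.

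Col6a1 (ILMN_2768087) and Col6a2, which encode partner chains of type VI collagen, correlated with r = 0.82 (permutation p = 7e-05, adjusted 0.0092) and rho = 0.75 (permutation p = 0.0012, adjusted 0.040) in colon, and with r = 0.68 (permutation p = 0.0060, adjusted 0.099) and rho = 0.63 (permutation p = 0.015, adjusted 0.19) in small intestine. Without the 2 arrays farthest from the median of 1 probe of the pair, r was 0.76 and 0.59. Here and for the pairs below, the farthest arrays were chosen by that 1 probe, so that outliers of the other probe stayed in. Col6a1 (ILMN_1259388) and Col5a1 correlated with r = 0.72 (permutation p = 0.00042, adjusted 0.018) and rho = 0.77 (permutation p = 0.00017, adjusted 0.020) in colon and r = 0.76 (permutation p = 0.00023, adjusted 0.015) and rho = 0.72 (permutation p = 0.00076, adjusted 0.033) in small intestine, and r was 0.65 and 0.59 without the 2 farthest arrays. The 2 Col6a1 probes, which read the same gene, themselves correlated with r = 0.47 in colon (permutation p = 0.062, adjusted 0.25; rho = 0.49, permutation p = 0.052, adjusted 0.29) and r = 0.78 in small intestine (permutation p = 0.0011, adjusted 0.029; rho = 0.82, permutation p = 0.00031, adjusted 0.020). Without the 2 farthest arrays these were 0.60 and 0.65.

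Col3a1 and Col18a1 ran against each other, with r = -0.71 (permutation p = 0.00064, adjusted 0.021) and rho = -0.72 (permutation p = 0.0018, adjusted 0.047) in colon and r = -0.51 (permutation p = 0.021, adjusted 0.23) and rho = -0.56 (permutation p = 0.013, adjusted 0.19) in small intestine, and r was -0.67 and -0.53 without the 2 farthest arrays. The partner chains Col1a1 and Col1a2 did not pass in either tissue (r = -0.25, permutation p = 0.34, adjusted 0.60, and rho = -0.27, permutation p = 0.29, adjusted 0.53, in colon; r = -0.18, permutation p = 0.53, adjusted 0.80, and rho = -0.10, permutation p = 0.71, adjusted 0.89, in small intestine). Without the 2 farthest arrays r was -0.30 and 0.15. Col4a1 and Col4a2 gave r = -0.03 in colon (permutation p = 0.92, adjusted 0.96; rho = 0.05, permutation p = 0.86, adjusted 0.93) and r = 0.51 in small intestine (permutation p = 0.025, adjusted 0.23; rho = 0.34, permutation p = 0.17, adjusted 0.46), which fell to -0.05 and 0.33 without the 2 farthest arrays.

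**Figure D5:**
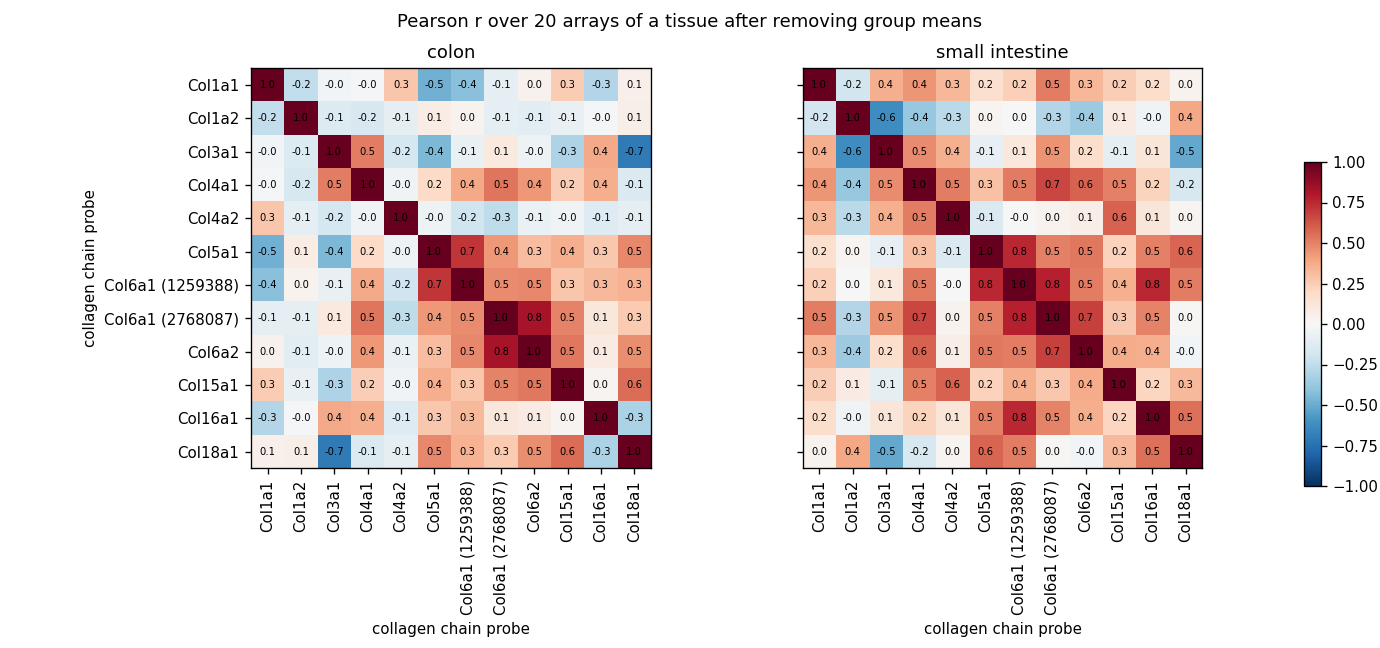
Pearson r between the 12 collagen probes detected on all 40 arrays (both axes, with probe numbers for Col6a1), over the 20 arrays of colon (left) and small intestine (right) after removal of the group means. Red is positive and blue negative, with r printed to 1 decimal. The reddest pair in colon is Col6a1 (ILMN_2768087) with Col6a2 and in small intestine the 2 probes of Col6a1, and the bluest are Col3a1 with Col18a1 in colon and with Col1a2 in small intestine.

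The genes outside the family whose residual pattern was most like the mean of Col1a1, Col1a2 and Col3a1 differed between the tissues. In colon, out of 13365 other probes, they were Taf12, Cnot4, Gtpbp6, Xrn2, Eef1b2, Car2, Fnta and H2bc4, with r between 0.76 and 0.82 over 20 arrays. In small intestine, out of 13015, they were Ints13, Irgm1, Psme3, Klhl15, Mfap4, Anp32e, Hspe1 and Hnrnpm, with r between 0.74 and 0.78. They are the highest of all these coefficients and carry no test. Mfap4, a microfibril protein, is the 1 known matrix gene among them.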

How the data were processed

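The deposited non-normalized table gives, per probe and array, a background-subtracted signal intensity (21.4% to 25.1% of values below 0) and a second column that the authors headed as a detection p-value but whose cells hold 1 minus it, as seen from their rise with brightness. Another deposited table, of log2 normalized values, has 10 VSL#3 colon columns that follow arrays of the other strain in the intensity table, and it served as an alternative only. Per the submitters' processing notes limma was used, and the version and role are not given in the sources used here. Per the labels' protocols, 500 ng of total RNA was amplified and 750 ng of biotin-labelled cRNA hybridized. After normalization H2-Ea, which C57BL/6 mice lack, was at a log2 signal of 11.78 to 13.57 on BALB/c and 4.66 to 6.98 on C57BL/6 arrays of the deposited intensity table.

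Intensities were corrected with normexp using the detection p-values (offset 16), quantile-normalized over 40 arrays and log2-transformed with limma 3.58.1 in R 4.3.3. Probes with 1 gene symbol, detected on at least 5 of the 20 arrays of a tissue, were fitted with lmFit and eBayes as 4 group means per tissue (13385 probes in colon, 13035 in small intestine), or as the colon minus small intestine difference per mouse (14009 detected in either tissue), since both samples of a mouse share a code. Same-mouse deviations correlated with a mean r of 0.170, over 0.1 in 14 of 20 mice. Symbols were updated through Entrez gene IDs. Named genes were all collagen probes called, or the 5 with the smallest p where fewer passed, and up to 4 list members per direction. The members, lists and tests were chosen with earlier results of these data known. The fits were tested on simulated data: of 100 probes changed by 1 log2 unit between 2 groups, 90 were recovered in colon and 91 in small intestine, and 72 in the paired fit. False calls numbered 10, 15 and 13. The simulated noise was normal and independent between probes, and changes under 1 log2 unit, as most collagen differences here are, were not simulated. For the paired fit a difference between groups of mice was simulated, not the mean over groups. Alternatives were other background corrections, scalings, filters, blocks and samples. Replicates are separate mice by their codes, and the number of arrays limits the precision.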

Additional observations from a re-analysis of the deposited data

Results flagged for a closer look

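Col16a1 was called as differing between the strains in its tissue difference: colon minus small intestine was lower in BALB/c than in C57BL/6 by 0.36 (-0.364, SE 0.10, limma adjusted p = 0.027), a test of the difference itself. The call was lost with median scaling, without the 3 colon arrays highest in acinar markers, and without any 1 of 4 mice. Mice of letter A or of letter B alone did not keep it either. In PBS mice 4 of 12 smooth muscle markers were called lower in BALB/c in each tissue, beside 5.1% of all tested probes in colon and 5.25% in small intestine. In VSL#3 mice, which the Col16a1 test also holds, fewer of these markers were called in both tissues. The part of these markers in the Col16a1 result was not tested.

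Among 96 sets of 5 mice (12 probes, 8 groups), 2 held a sample far from the others by Dixon's test, where chance gives about 1 in 20. In the colon of BALB/c VSL#3 mice, replicate 5 had a Col1a2 signal of 7.07, with the nearest at 6.63, and its acinar marker mean of 13.17 was among the 3 highest. In the colon of C57BL/6 PBS mice, replicate 1 had a Col4a1 signal of 10.10, with the nearest at 9.58.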

How the results depend on the processing

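Of 748 alternatives for 26 differences of named probes, none turned the direction, 672 kept the side of the threshold and 76 lost the call. Col1a2 between the strains was called under every alternative tried, with differences from -2.27 to -1.54, as were Col16a1, Col3a1 (brighter probe), Col5a1, Col4a2, Col1a2, Col15a1, Col23a1 and both Col18a1 probes between the tissues. Col1a1, Col6a1, Col28a1, Col4a5 and the dimmer Col3a1 probe lost the tissue call in mice of letter B alone and Col4a1 in mice of letter A alone, and Col24a1 lost it under 6 settings beside left-out mice. The fits by letter hold fewer mice than the main fit. In mice of letter B the differences were 0.33 for Col1a1, 0.14 for Col6a1, 0.27 for Col28a1 and 0.23 for Col4a5. The dimmer Col3a1 probe there gave 0.16, and Col4a1 in mice of letter A gave 0.17. The cause of the lost calls was not tested.

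Of the 14 counts of called members, the 8 for VSL#3 were 0 under all alternatives run. In the strain comparisons, the counts of 2 (PBS) and 3 (VSL#3) in colon became 1 and 1 with median scaling, with only the groups compared and without the 3 colon arrays highest in acinar markers (an alternative chosen after seeing the data, as were those by letter), and the PBS count became 1 with the deposited normalized table. In small intestine of PBS mice the count of 2 became 1 without a detection filter and with the deposited table. The count of 1 for tissue by strain became 0 with median scaling and without the 3 acinar arrays. In each of these strain counts of 1, Col1a2 was the member left. Leaving out 1 mouse at a time gave 1 to 3 in colon of both treatments, 1 to 2 in small intestine of PBS and of VSL#3 mice, 15 to 18 for the 16 tissue calls and 0 to 2 for tissue by strain. The single mice that moved a count by over 1.5 times are BALB/c PBS 1 and C57BL/6 PBS 2, 3 and 5, and BALB/c VSL#3 3 and 4 and C57BL/6 VSL#3 3 and 5, in colon, BALB/c PBS 2, 3 and 4 and C57BL/6 PBS 2, 3 and 5 and C57BL/6 VSL#3 5 in small intestine, and BALB/c PBS 4, C57BL/6 PBS 3 and 5 and C57BL/6 VSL#3 4 and 5 for tissue by strain. Smaller moves came without C57BL/6 PBS 4 (3 calls) and without BALB/c VSL#3 5 or C57BL/6 VSL#3 1, 2 or 4 (2 calls each) in colon, and without 7 of the 20 mice for the tissue calls.

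With the title number as a replicate block, 2 members were called in colon in each treatment, 2 and 1 in small intestine, 16 between tissues and 1 for tissue by strain, so that Col4a2 in VSL#3 mice was the call lost. Same-numbered samples were not alike throughout. Their deviations correlated over 0.1 in 3 of 5 pairs between the BALB/c colon groups (r up to 0.43). Between the VSL#3 colon groups 2 of 5 did (r up to 0.29), and 0 of 5 elsewhere. Median scaling moved the median of all probes to 0.11 for VSL#3 in BALB/c small intestine, to 0.13 for its difference between strains and to 0.13 for the strains in VSL#3 small intestine, where the members' medians were 0.13, 0.15 and 0.08. For Col14a1, near the background, the test of whether VSL#3 acted differently in the strains in small intestine gave 0.55 with an offset of 50, 3.35 with the deposited table, and 1.54 and 0.38 in mice of letters A and B. It was called under none of these.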
